A study of Rattus norvegicus with 6 samples.

Results

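Rat testis cells that were highest for Fam71a, Dcdc2c and Mgat4e made up 982 of the 11744 cells in the 6 libraries. They are called the Fam71a/Dcdc2c spermatids, or set 6. The cells were chosen by measured values: each gene was turned into a z-score over all cells, the z-scores of 3 genes were averaged into a score for each of 10 gene sets, and a cell joined the set with its top score. The 10 sets were written in the order of sperm formation, from meiosis (set 1, Psma8, Piwil1 and Sycp3) to the latest spermatids (set 10, Oaz3, Smcp and Odf1). The neighbours of set 6 were set 5 (Cd109, Tmem123 and Inava, 874 cells) and set 7 (Kansl1, RGD1563056 and Gmfg, 1116 cells). The working name for set 6 was spermatids starting elongation. Cell shape was not measured, so the name rests on genes alone. Since expression chose the sets, every difference between sets is given as a description with no test.

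Spermatids are the haploid cells that follow meiosis. They build an acrosome from Golgi vesicles and a tail from a centriole, shape the nucleus with a microtubule skirt called the manchette, and replace histones with transition proteins and then protamines. Transcription stops as the chromatin condenses, so many late proteins are made from messages that were written earlier and stored. Of the 3 genes that chose the cells, Fam71a (RefSeq Garin4) belongs to a family of Golgi-associated proteins that interact with the small GTPase RAB2. Dcdc2c encodes a protein with doublecortin domains, which bind microtubules. Mgat4e belongs by sequence to the MGAT4 family of N-acetylglucosaminyltransferases, which branch N-linked sugar chains.

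The promoters of these 3 genes are shown because their messages reached their highest level in the same cells. Each is a 300-base window around the annotated start in RefSeq (assembly GRCr8), written 5′ to 3′ on the gene's own strand. Fam71a lies at chr13:105276238-105276537, Dcdc2c at chr6:50906390-50906689 and Mgat4e at chr13:48543403-48543702, all on the minus strand.
Fam71a: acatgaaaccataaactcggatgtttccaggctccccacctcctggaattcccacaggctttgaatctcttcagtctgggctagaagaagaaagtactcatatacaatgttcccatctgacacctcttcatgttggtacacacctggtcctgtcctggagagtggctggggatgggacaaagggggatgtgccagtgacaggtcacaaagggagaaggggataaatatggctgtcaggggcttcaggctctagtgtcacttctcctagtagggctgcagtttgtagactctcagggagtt
Dcdc2c: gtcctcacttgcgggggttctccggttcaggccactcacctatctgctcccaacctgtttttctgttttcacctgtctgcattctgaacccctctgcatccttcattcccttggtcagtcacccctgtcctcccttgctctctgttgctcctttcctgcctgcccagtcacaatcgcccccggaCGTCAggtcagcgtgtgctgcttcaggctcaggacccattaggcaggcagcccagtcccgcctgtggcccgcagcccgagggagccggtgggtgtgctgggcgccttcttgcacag
Mgat4e: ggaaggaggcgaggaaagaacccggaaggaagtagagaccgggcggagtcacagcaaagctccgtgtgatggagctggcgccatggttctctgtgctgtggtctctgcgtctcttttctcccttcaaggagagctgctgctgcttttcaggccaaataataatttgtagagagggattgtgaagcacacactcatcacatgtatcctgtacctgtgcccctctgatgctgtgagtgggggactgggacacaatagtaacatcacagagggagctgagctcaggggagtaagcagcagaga
Capitals mark a match to TGACG read on the opposite strand, which begins at base 185 of the Dcdc2c window. TGACG is the shorter form of the cAMP response element, which CREB and CREM proteins bind. Every full element, TGACGTCA, also holds the shorter form. Both of these, GTTGCC (part of the X-box of RFX factors) and the TATA box TATAAA were searched on both strands. The single TGACG in Dcdc2c was the only match in the 3 windows. Among 27457 promoter windows of the same length, 1.91% held the full element, 22.0% the shorter form, 12.2% the X-box part and 14.3% the TATA box.

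The tissue came from SD rats, 3 normal controls and 3 animals put through a stress model with terrifying sound, and each animal gave 1 library of dissociated testis cells. The labels used here give no age, exposure time or genotype, and both groups are otherwise described alike. Replicates are separate animals per the labels. Library sizes ran from 409 cells (stressed replicate 1) to 2506 cells (stressed replicate 2), and set 6 cells held 1596509 to 13426273 counts per library, with medians of 34174 to 50133 counts per cell. Between libraries of 1 group, the chi-square of summed set 6 counts was 25.8 to 109 times its degrees of freedom. It takes each count as an independent draw, whereas counts are grouped in cells. It thus does not separate animals from the draw of cells. In all, 2 cell barcodes occurred in more than 1 library. Control replicate 2 and stressed replicate 1 stood apart: their set 6 cells had medians of 3146 and 2892 genes, against 1723 to 2147 in the other libraries. Stressed replicate 1 also had only 39 set 6 cells, and it correlated least with the other libraries across 3543 genes (r of 0.873 to 0.937, against 0.928 to 0.973 among the others).

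Levels are given as CPM, the depth-scaled counts summed over the set 6 cells of a library. CPM values are not divided by gene length, so they compare cells, not genes. They are shares of the measured RNA, and a rise in 1 message cannot be told apart from a loss of others. Fam71a stood, in the order of replicates 1 to 3, at 1150, 1164 and 1086 CPM among controls and at 1239, 1070 and 955 CPM among stressed animals. Dcdc2c was at 483, 456 and 419 CPM in the controls and at 576, 403 and 427 CPM in the stressed animals. Mgat4e was at 215, 177 and 259 CPM in the controls and at 278, 194 and 269 CPM in the stressed animals. Stressed replicate 1 was highest for all 3 genes, and for each gene the ranges of the groups overlapped. All 3 genes had a peak in set 6 in every library: the mean of Fam71a was 450 CPM in set 5 and 456 CPM in set 7, that of Dcdc2c was 176 and 91.4 CPM, and that of Mgat4e was 48.6 and 46.8 CPM. Fam71a and Mgat4e stood at like levels on both sides of set 6, whereas Dcdc2c was higher before it than after it.

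**Figure D1:**
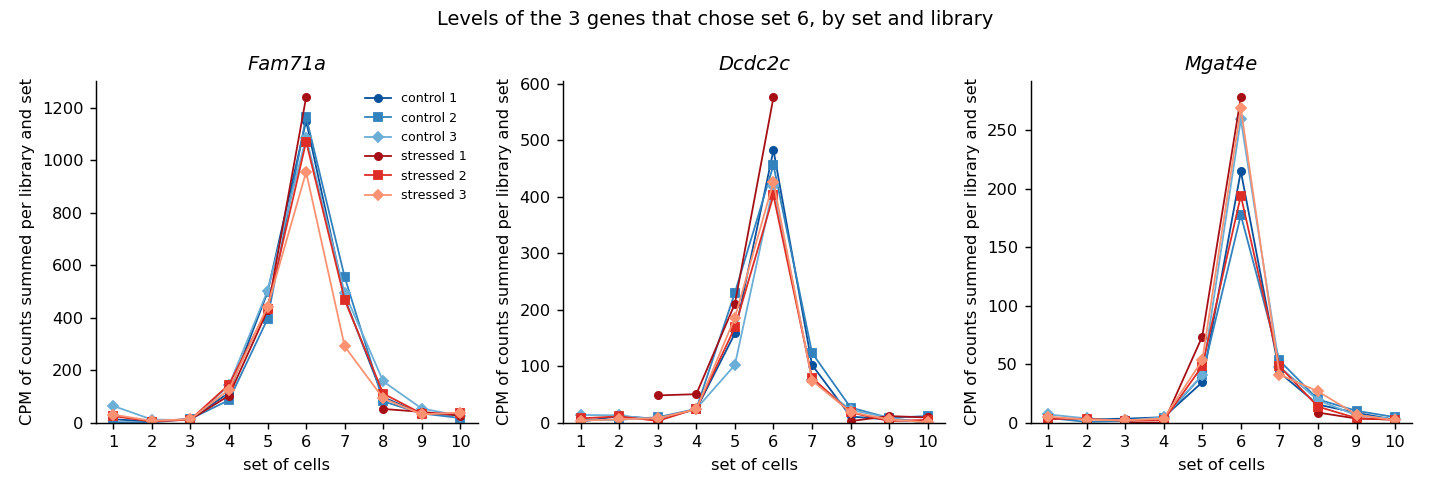
Level (CPM, y axis) of Fam71a, Dcdc2c and Mgat4e in the 10 sets of cells (x axis), with 1 line per library (controls in blue, stressed animals in red). Points with under 20 cells in a library are left out, such as set 7 of stressed replicate 1, and each line peaks in set 6, at 955 to 1239 CPM for Fam71a.

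In single cells, 96.7% of set 6 cells had a Fam71a count, 88.4% a Dcdc2c count and 80.7% a Mgat4e count. The shares were 83.9%, 61.9% and 30.5% in set 5, and 78.7%, 46.1% and 42.7% in set 7. In set 1, meiotic cells in which the 3 genes were low, 8.78%, 3.60% and 4.50% of cells had a count. The 3 genes summed to a mean of 38.5 CPM there, against 1803 CPM in set 6. Whether the counts in set 1 came from free RNA was not tested. Median counts per cell were 43558 in set 6, 40288 in set 5, 40695.5 in set 7 and 32346 in set 1. All 3 genes had a count in 69.6% of set 6 cells, 24.7% of set 5 cells, 25.4% of set 7 cells and 0.225% of set 1 cells. This share varied between libraries, from 50.2% in control replicate 3 to 92.5% in control replicate 2, which had the most genes per set 6 cell.

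The border of set 6 was gradual. The score of a set 6 cell exceeded its next set by a median of 0.625 (quartiles 0.292 and 1.16), and 95 cells were in by under 0.1. Another 101 cells missed set 6 by under 0.1, of which 43 had joined set 7 and 23 set 5. Just inside and just outside, the median normalised levels were 1.97 and 1.94 for Fam71a, 1.27 and 1.19 for Dcdc2c, and 0.386 and 0.506 for Mgat4e (natural log of 1 plus counts scaled to 10000 per cell). This closeness follows from how the cells were chosen. The next set was set 7 for 429 cells, set 5 for 218, set 8 for 209 and set 4 for 60. With z-scores taken within each library, set 6 held 1006 cells, 920 of them the same.

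Over all genes, set 6 cells were most like their neighbours. Across genes, mean log levels in set 6 correlated most with set 7 (r = 0.935) and set 5 (r = 0.919), then with set 8 (r = 0.855) and set 4 (r = 0.720). Genes are not independent replicates, and the sets share libraries. Between neighbouring sets a gene was counted when its mean level differed at least 2-fold and in the same direction in every library with 20 cells of both sets, among genes whose levels averaged at least 20 CPM over both sets. From set 5 to set 6, 136 of 3835 genes were higher (3.55%) and 524 were lower (13.7%). From set 6 to set 7, 1 of 3288 genes was higher (0.0304%), namely Kansl1, a gene of the set 7 rule, and 582 were lower (17.7%). Stressed replicate 1 had 15 set 7 cells and did not enter this second step. Losses thus outnumbered gains on both sides of set 6, and the median gene differed by -0.23 and -0.20 on the log2 scale at the 2 steps.

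Set 6 cells also held fewer detected genes than set 5. After each cell was thinned to 15000 counts, the median was 1632 genes in set 6 against 1994 in set 5 in control replicate 1, 2322 against 2616.5 in control replicate 2, and 1470 against 1625.5 in control replicate 3. In stressed replicates 1 to 3 it was 2322 against 2632.5, 1831.5 against 2193, and 1829 against 2101. Every library had fewer genes in set 6. Thinning left out 6 set 6 cells and 5 set 5 cells of stressed replicate 3 and none elsewhere, and unthinned medians in set 6 ran from 1723 to 3146 genes.

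The 10 genes with the largest losses on entry to set 6 had several functions. Spam1, the sperm hyaluronidase, was at 7.44, 3.10 and 9.31 CPM in the controls and 2.51, 8.72 and 3.61 CPM in the stressed animals, against a set 5 mean of 75.8 CPM (range 51.0 to 118). It was low in all 6 libraries of set 6, 11.3-fold below set 5. Cep290, a protein of the ciliary transition zone, was at a mean of 2489 CPM in set 4, 731 CPM in set 5 and 94.97 CPM in set 6. Creld2, an endoplasmic reticulum chaperone, was at 456 CPM in set 5 and 62.2 ± 25.1 CPM (SD, n = 6) in set 6. Erp44, which retains proteins in the early secretory pathway, was at 51.2 and 6.44 CPM. The other 6 genes with the largest losses were Tmem123 (a set 5 rule gene), Aldh18a1, Snrnp48, Spaca5, Lyar and Ift43, which were 5.96-fold to 8.03-fold lower in set 6 and lower in 6 of 6 libraries. Lyar, a nucleolar protein, was at 399 CPM in set 5 and 63.0 CPM in set 6.

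A second group of messages was reduced in set 6 yet still present, and had largely gone by set 7. Ccl26, a chemokine gene, was at 319, 241 and 448 CPM in the controls and 236, 383 and 363 CPM in the stressed animals, between 725 CPM in set 5 and 43.6 CPM in set 7. Every library of set 6 lay below its own set 5, and each of the 5 with enough set 7 cells lay above its own set 7. Pdilt, a testis protein disulfide isomerase-like chaperone, went from 665 to 224 ± 67.5 to 33.0 CPM. Tbc1d23, a Golgi trafficking adaptor, went from 582 to 127 ± 33.4 to 15.6 CPM (SD, n = 6 for set 6). Dynlt2b, a dynein light chain, stayed at 118 CPM in set 6 and was 7.86-fold lower in set 7. Necab1, a calcium-binding protein, went from 1114 CPM in set 5 through 433 CPM to 72.2 CPM. The other 5 of the 10 genes with the largest losses after set 6 were Cldn34c4, Prr27, Fam209, Fndc11 and Nscme3l, at 5.92-fold to 8.17-fold, each lower in 5 of 5 libraries.

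Of the 136 genes that were higher in set 6 than in set 5, 8 were 2-fold lower again in set 7 and 97 had a higher mean in set 7 than in set 6. The 8 were the rule genes Fam71a, Dcdc2c and Mgat4e with Maff, Map9, Mfap5, Myo9b and ENSRNOG00000069855. Rnf144a, a ubiquitin ligase, was at 13.4 CPM in set 5, 67.8 ± 30.6 CPM in set 6 and 62.6 CPM in set 7. Cdkn1c, an inhibitor of cyclin-dependent kinases, was at 103, 134 and 69.9 CPM in the controls and 100.2, 93.5 and 70.6 CPM in the stressed animals, 4.12-fold above set 5. Its groups overlapped, and all 6 libraries of set 6 lay above the highest set 5 library (31.7 CPM). Lca5, a ciliary protein, went from 47.1 CPM to 196 ± 37.8 CPM and to 257 CPM in set 7. Prss58, a serine protease and a rule gene of set 8, went from 113 to 411 ± 45.9 CPM and to 1082 CPM in set 8. Aarsd1, Col20a1, Hsd17b13, Nek3 and Stk10 were 3.44-fold to 4.32-fold above set 5 in 6 of 6 libraries, and Mgat4e itself completed the 10 genes with the largest gains. After set 6, gains were smaller: apart from Kansl1, the 9 genes with the largest gains were Rph3a, Hspa1l, Ahctf1, Pcnt, Car2, Kif27, Cby3, Socs7 and Tnp1, at 1.52-fold to 1.69-fold. Car2, a carbonic anhydrase, had little spread, with 208, 205 and 190 CPM in the controls and 201, 219 and 207 CPM in the stressed animals, between 72.7 CPM in set 5 and 318 CPM in set 7.

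Few genes had their peak in set 6. The mean level was highest there for 378 of 6641 genes with at least 20 CPM in some set (5.69%). Stressed replicate 1 entered the mean of set 6 but not those of sets 1, 2 and 7, where it had 9, 16 and 15 cells. The 15 genes that stood highest over any other set by their mean were Lrrfip1, Mark4, Wdr76, Myo9b, RGD1310507, Cep170b, Maff, Brpf1, Rin2, Hsdl1, Map9, Cc2d1b, AABR07027141.1, Mysm1 and Mfap5. Stressed replicate 1 was the highest library for 14 of them, and for 10 it was at least 2-fold above the next. Lrrfip1 was at 139 CPM there and at most 4.41 CPM elsewhere, and 195 of its 222 counts lay in 1 cell. The ranking was therefore repeated with the median over libraries, a choice made after these values were seen.

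Among the 15 leading genes by the median were Maff, Myo9b, Nfx1, Pcbp4, Fkbp3, Col4a1, Otud1, Dcaf10, Nckipsd, Slc39a4, Ndrg1, Map9 and the unnamed genes ENSRNOG00000069428 and ENSRNOG00000067539, with 3 genes shared between the rankings. For 12 of the 15, set 6 was the highest set in every library, which was partly fixed by ranking on these same libraries. Stressed replicate 1 was still the highest library for 11 of the 15, and for 1 it was at least 2-fold above the next. Nfx1, a zinc finger transcription factor, was at 134, 119 and 133 CPM in the controls and 166, 129 and 137 CPM in the stressed animals, against means of 66.6 CPM in set 5 and 78.4 CPM in set 7. Fkbp3, a nuclear peptidyl-prolyl isomerase, was at 339, 323 and 435 CPM in the controls and 279, 372 and 285 CPM in the stressed animals, against 188 and 178 CPM. Maff, a small MAF transcription factor, was at 58.6 ± 14.6 CPM in set 6 and 23.0 and 24.6 CPM beside it. Map9, a microtubule-associated protein, was at 36.6 ± 12.4 CPM against 17.3 and 11.9 CPM (SD, n = 6).

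**Figure D2:**
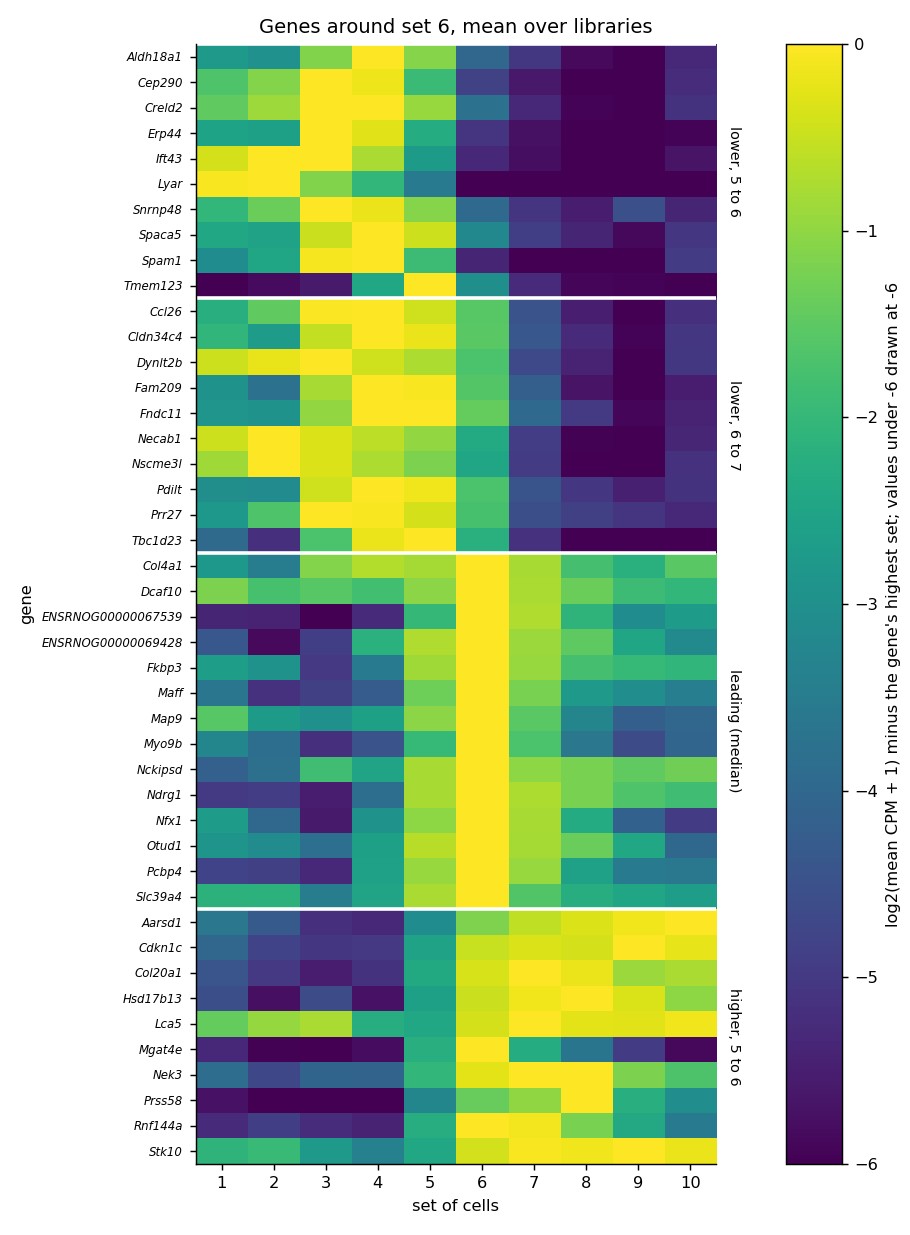
Mean level over libraries in each of the 10 sets (x axis), as log2(CPM + 1) minus the gene's highest set (colour), for the genes with the largest losses and gains around set 6 and for genes leading by the median (y axis, 4 blocks). The loss blocks darken at set 6 or set 7, the leading block is brightest at set 6, and Cdkn1c in the gain block is at 22.3, 95.2 and 109 CPM in sets 5, 6 and 7, whereas Mgat4e drops to 46.8 CPM in set 7.

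Gene lists for parts of the developing sperm were then read against these backgrounds. Each is described by how many members met the 2-fold rule and by its median log2 difference, beside -0.23 and -0.20 for all genes compared.

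Acrosome messages were lower in set 6 than before it and lower again after it. Of 19 acrosome genes compared, 10 were lower and 0 higher in set 6 than in set 5 (median -1.18), and 9 of 17 were lower in set 7 than in set 6 (median -1.12). Acrv1, an acrosomal vesicle protein, was at 83.7, 68.7 and 65.6 CPM in the controls and 100.4, 47.9 and 47.2 CPM in the stressed animals, between 158 CPM in set 5 and 14.1 CPM in set 7. All 6 libraries were below the lowest set 5 library (101 CPM). Zpbp, a zona pellucida-binding protein, went from 460 CPM in set 5 to 99.0 ± 29.6 CPM (SD, n = 6) and 22.7 CPM in set 7. Spaca4 went from 1069 to 440 ± 99.9 to 87.1 CPM. Not all members left together: Spaca9 had its peak in set 6 in all 6 libraries, at 2410 ± 435 CPM against 1956 and 1659 CPM, and Actl9, an actin-related protein of the acrosome region, had its highest mean there (428 ± 59.8 CPM) in 5 of 6 libraries. Acr, the gene of acrosin, was at 583, 434 and 231 CPM in sets 5, 6 and 7.

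Of 5 genes of transition proteins, protamines and other proteins that pack the nucleus, 2 were higher in set 6 than in set 5, Tnp2 and Prm2 (median 0.82). Tnp2 is a rule gene of set 8 and Prm2 of set 9, so their rise was partly fixed by how the sets were chosen. Tnp1, Prm3 and H1f7 did not meet the 2-fold rule. No member met the rule from set 6 to set 7 (median 0.42). Tnp1, transition protein 1, was at 17496, 33592 and 12330 CPM in the controls and 26280, 23567 and 15176 CPM in the stressed animals, against means of 12102 CPM in set 5 and 31023 CPM in set 7. Control replicate 2 was highest and control replicate 3 lowest, so the control range enclosed the stressed one. Tnp2 was at 14269, 11261 and 12882 CPM in the controls and 9420, 14296 and 11147 CPM in the stressed animals, between 5502 and 18723 CPM. Prm2, protamine 2, was at 11798 ± 2672 CPM, between 5000 and 16720 CPM. Of 3 histone genes compared, H3f3a, a replication-independent histone H3, was lower in set 6 (106 ± 34.9 CPM against 625 CPM in set 5), while H2bl1, a testis H2B variant, was at 846, 853 and 1014 CPM in sets 5, 6 and 7. Of 5 regulators of histone exchange compared, 0 met the rule at either step. Cdyl, a chromodomain protein, was at 578, 845 and 1048 CPM.

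Of 16 manchette and nuclear shaping genes, 0 were higher and 2 lower than in set 5, namely Sun5, which anchors the tail to the nucleus and is a rule gene of set 4, and Hook2 (median -0.17). Spata6, needed for the connecting piece of the tail, was at 4732, 5748 and 7154 CPM in sets 5, 6 and 7, and Hook1, a manchette linker, at 495, 580 and 463 CPM. Of 21 axoneme genes, 4 were lower, the tektin genes Tekt1, Tekt2 and Tekt4 and the dynein heavy chain Dnah3, and 1 was higher, the dynein heavy chain Dnah1 (median -0.35). Tekt2 was at 388, 193 and 384 CPM in the controls and 281, 282 and 424 CPM in the stressed animals, between 1046 CPM in set 5 and 86.0 CPM in set 7. Dnah1 went the other way, from 8.07 CPM to 38.1 ± 8.97 CPM and 54.0 CPM. From set 6 to set 7, 5 of 16 axoneme genes were lower, namely the tektin genes Tekt1, Tekt2, Tekt3 and Tekt4, and Spag6l.

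Of 6 intraflagellar transport genes, Ift43 and Ift74 were lower than in set 5 (median -0.54), Ift74 at 593 ± 237 CPM against 1238 CPM. Outer dense fibre and fibrous sheath genes, which cover the axoneme late, had 0 of 16 members over the rule on entry (median 0.29), and 2 of 16 were lower in set 7, Odf3 and Cabyr (median 0.28). Odf2 was at 2676, 3594 and 4202 CPM in sets 5, 6 and 7, and Smcp, a mitochondrial capsule protein and rule gene of set 10, at 13256, 16179 and 20473 CPM. Among ion transport genes of the sperm tail, 3 of 9 were lower on entry (Catsper2, Slc9c1 and Slc9b1, median -0.76), and 4 of 6 were lower in set 7 (Catsper2, Catsper3, Efcab9 and Lrrc52, median -1.20). Catsper3, a pore subunit of the sperm calcium channel, was at 177, 97.7 and 22.6 CPM.

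Some factors that write and store messages were lower than in set 5. Crem, the transcriptional activator of many spermatid genes, was at 189, 146 and 228 CPM in the controls and 185, 173 and 232 CPM in the stressed animals, below every set 5 library (366 to 497 CPM) and above every set 7 library (56.7 to 77.9 CPM). It was the only 1 of 10 transcription regulators over the rule on entry (median -0.25), and it was joined after set 6 by Sox30 and Gtf2a1l (3 of 10 lower, median 0.01). Sox5 was at 1493, 2107 and 2763 CPM in sets 5, 6 and 7, and Fhl5, a partner of CREM, at 895, 989 and 1068 CPM. Of 11 genes of message storage and delayed translation, 3 were lower on entry, Pabpc2, Tdrd6 and Ddx4 (median -0.62), and 3 of 7 after it, Pabpc1, Tdrd6 and Celf1 (median -0.61). Pabpc1, a poly(A)-binding protein, was at 2166, 2172 and 1994 CPM in the controls and 3035, 3421 and 2319 CPM in the stressed animals, between 4853 CPM in set 5 and 460 CPM in set 7. The stressed libraries lay above the control libraries, and across all genes tested the groups did not overlap for 610 of 8432 (7.23%). Ybx2, which packages stored messages, was at 342, 314 and 351 CPM, and its spread in set 6 was wide (172 to 477 CPM).

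Relatives of Fam71a did not share its peak. Fam71a, Dcdc2c and Mgat4e chose the cells and their relatives did not. The rise of these 3 genes into set 6 and their fall after it were thus partly fixed by the rule. Among 9 RAB2 interactor and Golgi genes, Fam71a was the only 1 over the rule upwards and Rab2a the only 1 downwards (median 0.71). Of the 12 genes of that list with at least 20 CPM in some set, Fam71a was the only 1 with its highest mean in set 6. Fam71e1 and Fam71e2, also among the 5 highest of the list in set 6, thus had their highest means in other sets. The relatives Fam71d (620, 1026 and 1351 CPM in sets 5, 6 and 7) and Fam71f1 (464, 688 and 914 CPM) kept higher levels in set 7, where Fam71a was back at 456 CPM. Rab2a was at 71.3, 34.4 and 35.2 CPM. Dcdc2c was the only doublecortin family gene that averaged at least 20 CPM over sets 5 and 6, and Dclk1 was at 16.3 ± 8.58 CPM. Among 3 N-glycan branching genes compared, Mgat4e was higher and Mgat4c lower on entry (108 CPM in set 5, 46.7 ± 13.0 CPM in set 6), and Mgat1 was at 127 CPM in stressed replicate 1 and 10.8 to 25.1 CPM elsewhere.

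In the remaining lists few members met the rule. Hsp90aa1, a chaperone of the glucocorticoid receptor among other clients, was at 818, 386 and 159 CPM in sets 5, 6 and 7. Hsp90ab1 was also lower on entry (45.5 and 21.1 CPM), which made 2 of 4 members of that list (median -0.87). Hspa2 was at 511, 256 and 75.6 CPM and met the rule only after set 6, while Hspa4l, a testis HSP110, was at 764, 979 and 1168 CPM. Of 10 glycolysis genes 1 was higher on entry, Gpi, which makes fructose 6-phosphate (16.1 CPM and 46.3 ± 16.7 CPM). Testis serine kinases (0 of 5, median 0.23), oxidative stress defence (0 of 7, median 0.14), HSP70 and HSP110 genes (0 of 4, median 0.10) and ubiquitin and autophagy genes (0 of 10, median -0.06) had no member over the rule on entry. In the apoptosis list the only gene compared was Cyct, the testis cytochrome c, at 80.4 and 32.0 CPM in sets 5 and 6. In the immediate early list it was Jund, at 28.0 and 38.6 CPM.

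**Figure D3:**
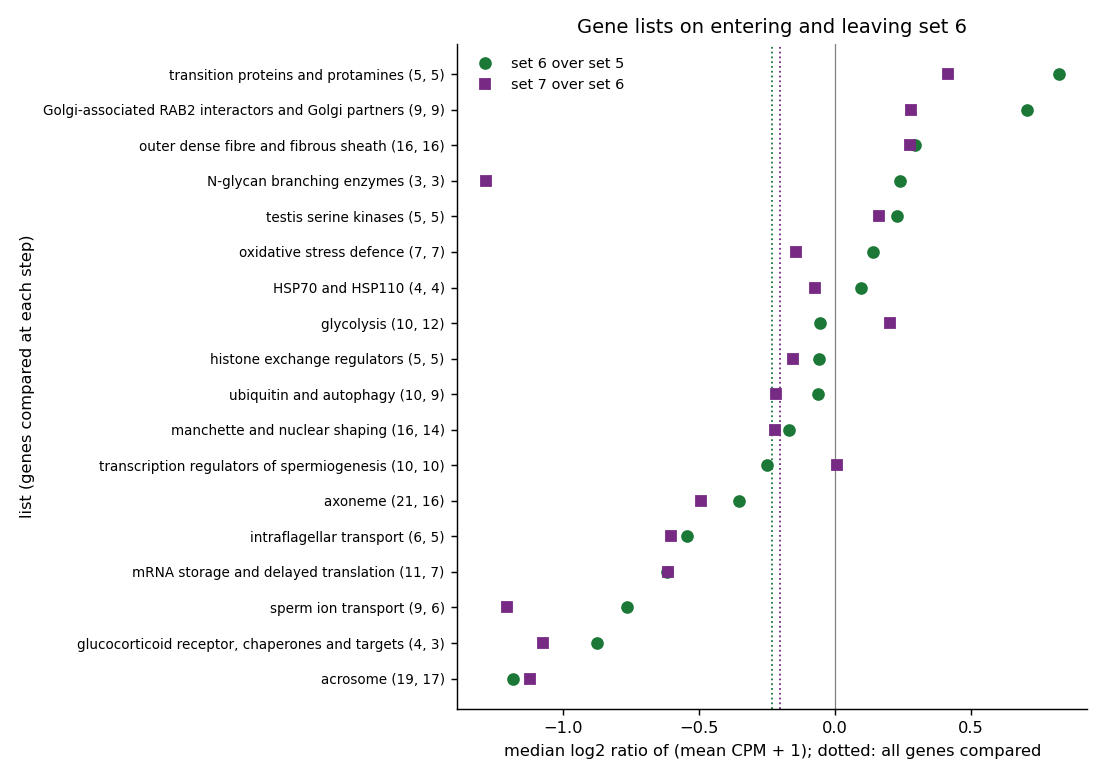
Median log2 ratio of (mean CPM + 1) per gene list (y axis, with the genes compared at each step in brackets) on entering set 6 (circles) and on leaving it (squares), with dotted lines at the medians of all genes compared (-0.23 and -0.20). Among the lists drawn, which have at least 3 genes compared at each step, acrosome genes lie lowest on entry at -1.18, and transition proteins and protamines, with the rule genes Tnp2 and Prm2, highest at 0.82.

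Set 6 was not uniform inside. Of its 982 cells, 291 had their next best score in sets 1 to 5 and 691 in sets 7 to 10, here the early and the late side. Means are given over the 5 libraries with at least 20 cells on both sides (stressed replicate 1 had 17 early cells). The side was chosen by rule genes of other sets, so differences between the sides are partly fixed by that choice and are a description too. Pdilt was at 470 CPM on the early side and 112 CPM on the late side, Cep290 at 247 and 34.1 CPM, Pabpc1 at 3970 and 1849 CPM, and Acrv1 at 113 and 45.0 CPM. Tnp1 was at 14739 and 22404 CPM, Car2 at 99.1 and 250 CPM, Cdkn1c at 46.2 and 111 CPM, and Dnah1 at 15.0 and 51.7 CPM. Each of these 8 genes had the same direction in 5 of 5 libraries, and no share over all genes was taken. Not every gene mirrored the step to set 7. Myo9b (15.4 and 30.1 CPM) and Mfap5 (57.1 and 76.1 CPM), which were lower again in set 7, were higher late in 5 of 5 libraries. The rule genes differed less: Dcdc2c was at 473 and 419 CPM (higher early in 4 of 5 libraries), Mgat4e at 205 and 230 CPM (higher late in 4 of 5) and Fam71a at 881 and 1156 CPM (higher late in 5 of 5).

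Markers of other cell types were low in set 6, apart from genes that spermatids also express. Round spermatid markers were lower than in set 5 for 6 of 7 genes compared and elongating markers higher for 5 of 13, but both lists hold rule genes. Spermatocyte markers summed to 126 to 172 CPM per library and Sertoli markers to 4.25 to 16.0 CPM, with Amh and Fshr at 0. Spermatogonia markers summed to 52.0 to 144 CPM, and Uchl1, the only 1 of them compared, was higher than in set 5 (log2 difference 1.41). Late meiosis markers summed to 59.5 to 122 CPM, peritubular myoid markers to 15.4 to 50.2 CPM and stromal markers to 3.12 to 22.5 CPM. Endothelial markers summed to at most 1.24 CPM, with Pecam1 and Cdh5 at 0. The 14 macrophage markers summed to 2827 to 3778 CPM in the controls and 3013 to 3261 CPM in the stressed animals, of which Aif1 gave 2725 to 3751 CPM. Aif1 was present in every spermatid set (3893 CPM in set 7), and Cd163 was at 0. Stressed replicate 1 was the exception, with Apoe at 133 CPM, C1qc at 28.2 CPM, Cd74 at 26.9 CPM and the T cell gene Cd3d at 20.7 CPM, against at most 52.9, 1.36, 1.91 and 0.992 CPM in the other libraries. The part of these RNAs in the values of stressed replicate 1 was not tested. Leydig markers summed to 30.9 to 45.6 CPM, mainly Fdx1, which was higher in sets 4 and 5 (112 and 96.3 CPM).

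The comparison of the 2 groups asked whether stress changed how many cells were in set 6 and what they expressed. Set 6 made up 6.75% of cells in control replicate 1 (Wilson 95% interval 5.80 to 7.83), 8.83% in control replicate 2 (7.60 to 10.2) and 10.2% in control replicate 3 (9.09 to 11.5). It made up 9.54% in stressed replicate 1 (7.05 to 12.8), 10.1% in stressed replicate 2 (9.01 to 11.4) and 5.42% in stressed replicate 3 (4.55 to 6.44). The stressed animals held both the lowest value and values near the highest, and the groups overlapped. The mean was 8.60% ± 1.75 in controls and 8.36% ± 2.57 in stressed animals (SD, n = 3 each), a difference of -0.239 percentage points (2-sided exact permutation p = 0.8, with 0.1 the smallest possible). The intervals cover counting error only. The difference turned positive without control replicate 3 (0.576) or without stressed replicate 3 (1.23), and with z-scores within libraries (0.644).

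**Figure D4:**
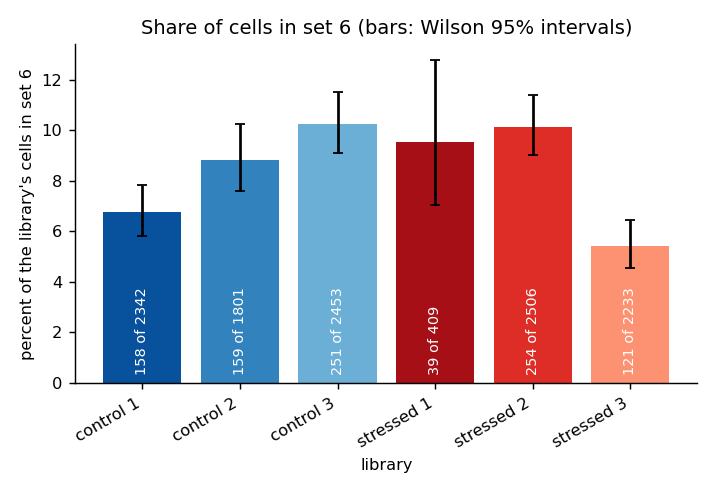
Percent of each library's cells in set 6 (y axis) for the 6 libraries (x axis), with Wilson 95% intervals and the number of cells written in each bar. The stressed animals range from 5.42% to 10.1% and the controls from 6.75% to 10.2%.

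Within set 6, no gene passed the test between stressed and control animals. The quasi-likelihood test of edgeR on counts summed per library called 0 of 8432 genes at a Benjamini-Hochberg adjusted p under 0.05 (0.0%), and 180 genes had an unadjusted p under 0.05. Positive and negative changes were even, with 4230 and 4202 genes, and the median log2 change was 0.00. For 610 genes (7.23%) the groups did not overlap. DESeq2 called 3 genes, and edgeR without a filter on low counts called 23. Leaving out control replicate 2 and stressed replicate 1 together, a choice made after their gene numbers were seen, gave 3 called genes.

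The gene with the smallest p was AABR07001902.1, a gene model with no symbol. It was at 1.77, 2.13 and 2.65 CPM in the controls and 29.2, 25.02 and 21.3 CPM in the stressed animals (CPM in the comparison of groups are scaled by TMM factors). All 3 stressed libraries lay far above all 3 controls, including stressed replicates 2 and 3, which did not stand apart. The log2 change was 3.50 (SE 0.47, edgeR adjusted p = 0.0876), and the adjusted p ran from 2.69e-10 (DESeq2) to 1.00 (without control replicate 1) over the alternatives, with log2 changes of 3.37 to 3.66. ENSRNOG00000071151, also without a symbol, was at 10.5, 7.65 and 13.8 CPM in the controls and 1.22, 1.26 and 1.47 CPM in the stressed animals. Its groups did not overlap either, with a log2 change of -2.99 (SE 0.64, edgeR adjusted p = 1.00) and an adjusted p of 0.0349 by DESeq2. Rassf4, a RAS association domain protein, was at 0.136, 0.125 and 0.606 CPM in the controls and 10.4, 2.81 and 6.74 CPM in the stressed animals, from 10 and 78 counts (log2 change 4.31, SE 1.02, edgeR adjusted p = 1.00). DESeq2 also called Rassf4 (adjusted p = 0.0349). Whether near-identical copies share reads with the unnamed gene models was not tested.

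The other genes with the smallest p each had an edgeR adjusted p of 1.00 in the main fit, with all 6 libraries and the filter on low counts. Without the filter, edgeR adjusted p was 0.0250 for Hfm1, Ddx17, Serpina1 and ENSRNOG00000065510, and 0.000594 for ENSRNOG00000067773. The last 2 also passed without both control replicate 2 and stressed replicate 1 (edgeR adjusted p = 0.0425 for each). Npm3, a nucleolar chaperone of the nucleoplasmin family, was at 27.3, 12.2 and 26.9 CPM in the controls and 55.4, 52.7 and 61.3 CPM in the stressed animals. Serpina1, a protease inhibitor, was at 1608, 737 and 1634 CPM in the controls and 609, 574 and 839 CPM in the stressed animals, so that control replicate 2 lay among the stressed libraries. Ubb, a ubiquitin gene, had the same form, with 246, 134 and 243 CPM against 96.9, 91.8 and 142 CPM. In both genes the controls other than replicate 2 were the high libraries.

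Hfm1, a helicase of meiotic crossing over, was at 1.23, 5.14 and 0.303 CPM in the controls and 17.1, 22.6 and 10.95 CPM in the stressed animals. Its log2 change was 2.94, and 4.52 without control replicate 2. Of the meiotic markers, Psma8, a rule gene of set 1, was at 3.14, 2.01 and 4.55 CPM in the controls and 10.4, 9.89 and 5.48 CPM in the stressed animals (log2 change 1.39). Tpx2 (1.31) and Cenpe (2.43) were also higher in all 3 stressed libraries, and these 3 genes had an unadjusted p under 0.05 but an edgeR adjusted p of 1.00. The medians were 0.35 over the 8 spermatocyte markers tested (5 positive) and 0.45 over the 8 late meiosis markers tested (4 positive). The first list holds rule genes of set 1 and the second holds rule genes of set 2. The part of such RNA in the level of Hfm1 was not tested. Between the early and late sides described above, Hfm1 was at means of 3.81 and 9.49 CPM (without TMM scaling). It was higher on the late side in 5 of 5 libraries. Psma8 and Tpx2 were each higher on the late side in 3 of 5 libraries, and Cenpe was higher on the early side in 4 of 5. Ddx17, an RNA helicase, was at 4.09 to 6.82 CPM in the controls and 67.0, 6.98 and 16.8 CPM in the stressed animals, with stressed replicate 1 far above the others (log2 change 2.33, and 1.02 without that library). Akap17a, AABR07054000.1, ENSRNOG00000070814, ENSRNOG00000066095 and Pex5 were also higher in all 3 stressed libraries, at log2 changes of 1.58 to 3.62. On the lower side, Faxc, Rhobtb1, Tafa1 and ENSRNOG00000065510 had all 3 stressed libraries below all controls, at log2 changes of -2.81 to -1.27, and ENSRNOG00000067773 had 2 of 3 (-2.60). Med22, a Mediator subunit, had 93 counts in the controls and 4 in the stressed animals, 14.0-fold higher in the controls per count of the group (exact 95% interval 5.28 to 52.3). ENSRNOG00000065669 had 55 and 2 counts, a ratio of 16.5 (4.36 to 139.9). Such intervals cover counting error only, not the spread between animals.

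**Figure D5:**
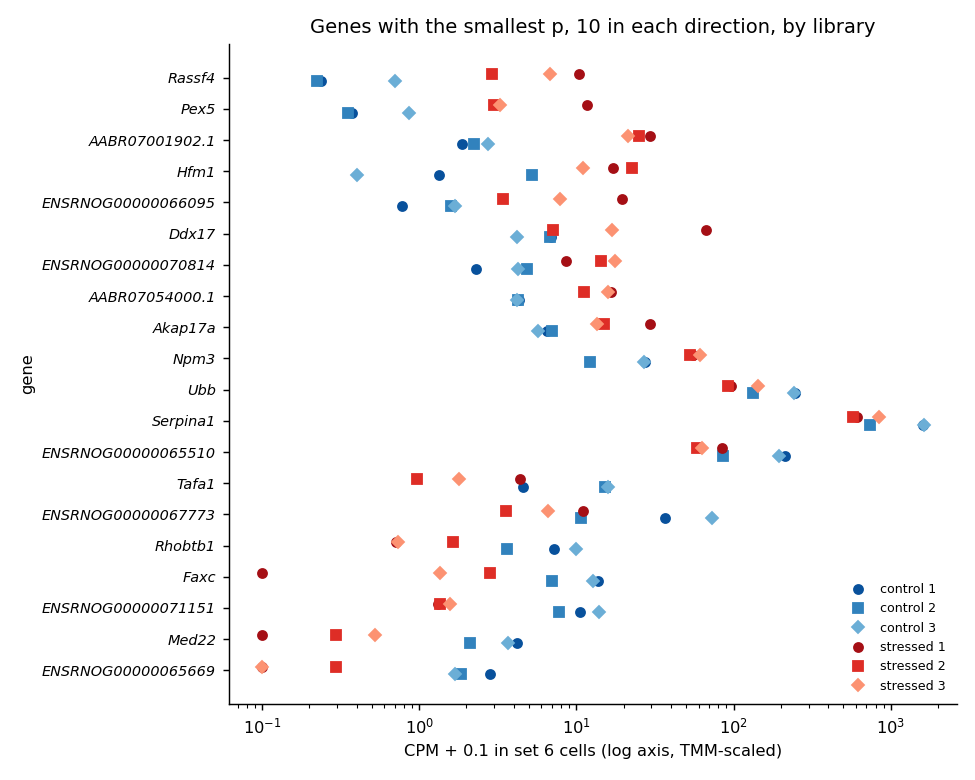
Level in set 6 cells (x axis, CPM + 0.1 with TMM scaling, log axis) of the 10 genes with the smallest p in each direction (y axis), with 1 point per library (controls in blue, stressed animals in red). AABR07001902.1 lies at 21.3 to 29.2 CPM in the stressed animals and 1.77 to 2.65 CPM in the controls, whereas Serpina1 and Ubb overlap through control replicate 2.

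Cells joined set 6 because Fam71a, Dcdc2c and Mgat4e were high, so their levels within set 6 are bound by that choice and are given with no test. Log2 changes (stressed against control) were -0.05 for Fam71a (SE 0.19), 0.05 for Dcdc2c (SE 0.20) and 0.18 for Mgat4e (SE 0.23). Tnp2 and Prm2, rule genes of later sets, were at -0.12 (SE 0.21) and -0.07 (SE 0.26). Tnp1 was at 0.04 (SE 0.34) and Crem at 0.08 (SE 0.24), each with an edgeR adjusted p of 1.00. Stx17, an autophagosome syntaxin, was at 1.36, 0.753 and 0.985 CPM in the controls and 1.22, 3.88 and 4.42 CPM in the stressed animals (log2 change 1.66, SE 0.90). Kdm1a, a histone demethylase, was at 0.682, 1.88 and 4.25 CPM and at 0.609, 6.01 and 9.27 CPM (1.25, SE 0.94). The log2 change of Kdm1a was 0.64 without stressed replicate 3 and 2.07 without control replicate 3. In both genes stressed replicate 1 lay among or below the controls.

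No gene of the functional lists was called in the fit with a filter on low counts, and without it edgeR called Golga1, a Golgi matrix protein. The members with an unadjusted p under 0.05 were Pabpc1, Tdrd6, Golga1, Ldha and Ubb. Pabpc1 and Tdrd6 were 2 of 15 message storage genes tested, and Golga1 was 1 of 12 RAB2 interactor and Golgi genes. Ldha was 1 of 14 glycolysis genes and Ubb 1 of 15 ubiquitin and autophagy genes. Across all genes tested, 180 of 8432 had such a p, and the groups did not overlap for 610 (7.23%). Pabpc1 was at 2106, 2197 and 2030 CPM in the controls and 2953, 3614 and 2298 CPM in the stressed animals (TMM-scaled). Its stressed libraries lay above all controls, with a log2 change of 0.49 (SE 0.21, edgeR adjusted p = 1.00). Tdrd6, a scaffold of the chromatoid body, where germ cell messages are stored, also had no overlap, at 61.8, 45.1 and 65.6 CPM against 129, 69.1 and 87.2 CPM (log2 change 0.71, SE 0.31, edgeR adjusted p = 1.00). Both genes were also higher on the early side of set 6. Over the 15 message storage genes tested, the median was 0.05, with 9 positive and 6 negative. The share of early cells among set 6 cells was 45 of 158, 32 of 159 and 94 of 251 in the controls and 17 of 39, 58 of 254 and 45 of 121 in the stressed animals, and its part in these values was not tested.

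The glucocorticoid receptor gene Nr3c1 and its targets Fkbp5 and Tsc22d3 were near the limit of detection in set 6, whereas the target Klf9 was at 62.7 ± 16.9 CPM (SD, n = 6). Nr3c1 was at 0.421, 3.35 and 0 CPM in the controls and 1.88, 0.826 and 0.850 CPM in the stressed animals (without TMM scaling). Its target Fkbp5 had 1 count in 28613481 in the controls and 11 in 17193361 in the stressed animals, a ratio of 18.3 with an exact 95% interval of 2.66 to 788 for counting error alone. Its target Tsc22d3 had 0 counts in both groups, which allows up to 0.105 CPM in the controls and 0.174 CPM in the stressed animals (3 counts over the group). Pheta1, a regulator of endosomal trafficking, had 5 counts in the controls and 0 in the stressed animals. These 4 genes were too low to enter the test. Over the 7 genes of the glucocorticoid list that were tested, 2 were positive and 5 negative, with a median of -0.11. The immediate early genes had 4 tested members, 2 positive and 2 negative (median 0.26), and the 7 HSP70 and HSP110 genes had 6 positive and 1 negative (median 0.10).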

How the data were processed

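Single cells of dissociated rat testis were sequenced from 3 control and 3 stressed animals, with microfluidic Singleron GEXSCOPE libraries on an Illumina NovaSeq, per the labels' protocols. The authors deposited, per library, a table of whole-number counts per gene and cell and a table of normalized values in natural log units, which equal the natural log of 1 plus counts scaled to 10000 per cell. Not given in the sources used here are the aligner, the genome build, the cell filter and the nature of a count (read or molecule). The tables list 21170 genes, 4948 of them by identifier only, and 16406 had a count in set 6. A cell's set was taken from the normalized tables and every level and test from the counts, which were summed per library since cells are not replicates. No doublets were called or removed, and leaving out the 5% of set 6 cells with the highest counts was tried instead.

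Groups were compared with edgeR 4.0.16 in R 4.3.3 (quasi-likelihood, TMM scaling, filterByExpr, Benjamini-Hochberg adjustment over 8432 genes, called at an adjusted p under 0.05). The fit was also run on simulated counts, with large changes only and less spread between libraries than in these data. That run does not show which changes the fit could find here. Shares were compared with an exact permutation test in Python 3.11.15. Alternatives were DESeq2 1.42.0, RLE factors, no filter, the replicate number as a block, each library left out, and other memberships. Sets were compared by CPM of summed counts with a pseudocount of 1 CPM and no test. Named genes were the rule genes, the 10 with the smallest p in each direction between groups, the 15 leading set 6, the 10 with the largest fold up and down between neighbouring sets among genes with a symbol and at least 50 CPM, up to 5 genes of each list by CPM in set 6, and some fixed genes. Of the genes leading set 6 by the median, 1 is not reported here. Other members of lists are named where they met the 2-fold rule, chosen after their values were seen. The members of set 6 and the gene lists were chosen with earlier results of these data known. P-values rest on the spread between these 6 libraries, 1 per animal, which also holds library preparation and the draw of cells.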

Additional observations from a re-analysis of the deposited data

How the results depend on the processing

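The count of genes called between stressed and control animals was 0 in 11 of 14 alternatives. It was 3 with DESeq2, 23 with no filter on low counts, and 3 without both control replicate 2 and stressed replicate 1 (chosen after seeing the data). Replicate numbers were shared between the groups. Deviations from the group means correlated at -0.056, -0.081 and 0.128 for same-numbered libraries, and at -0.206 to 0.213 for the other pairs. Deviations from a mean of 3 libraries are tied to each other. These values therefore cannot tell whether same-numbered animals were handled together. The fit with a block for the number called 0 genes, with 113 at an unadjusted p under 0.05 against 180. The share difference of -0.239 points became 0.644 with z-scores within each library, and ran from -1.17 to 1.23 with each library left out, turning positive without control replicate 3 (0.576) and stressed replicate 3 (1.23). The 1 gene that was 2-fold higher from set 6 to set 7 became 3 with a score margin of at least 0.25 and 2 with z-scores within libraries, and ran from 1 to 4 with each library left out (4 without control replicate 2, 2 without stressed replicate 3). These alternatives for the steps between sets were added after seeing the data, and the other 3 step counts stayed within 1.5 times. The cause of these shifts was not tested.

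Of 404 log2 changes of 29 named genes under alternatives, 379 kept their sign and side of the threshold, 11 passed the threshold and 14 changed sign. Tnp1 changed sign with no filter (-0.00446) and without control replicate 1 (-0.10), control replicate 3 (-0.24), stressed replicate 1 (-0.080) and stressed replicate 2 (-0.075), with a range of -0.24 to 0.56 over libraries left out. Tnp2 changed sign without stressed replicate 1 (range -0.35 to 0.040), and Prm2 without control replicate 3 (0.092) or stressed replicate 1 (range -0.26 to 0.14). Crem did so without control replicate 2 (-0.076) or stressed replicate 3 (-0.056), and Fam71a without stressed replicate 3 (range -0.12 to 0.035). Dcdc2c did so without control replicate 3 (-0.000931), without stressed replicate 1 (range -0.087 to 0.11) and without both libraries that stood apart (-0.065). With 39 set 6 cells, stressed replicate 1 is the least precise library.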
